A study of Chlorocebus sabaeus with 6 samples.

Results

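The 9 genes described here belong to the NRF2 pathway and to the making and recycling of glutathione: NFE2L2, KEAP1, HMOX1, NQO1, GCLC, GCLM, TXNRD1, SRXN1 and GSR. They were chosen by their gene symbols, and each had 1 row among the 18050 genes of the deposited expression table. Their RNA was compared in COS7 cells, an SV40-transformed line from African green monkey kidney. The comparison was between 3 wild-type samples (WT) and 3 samples with the atlastin genes ATL2 and ATL3 both knocked out (DKO). All 6 were bulk cultures in the same serum-supplemented DMEM, with no treatment named. The labels do not say how the knockout was made, from how many clones the DKO samples came, or whether samples of 1 genotype were separate cultures. The error behind each p-value is therefore the scatter of these 6 libraries alone, and that scatter may be technical. In bulk RNA, a change within each cell and a change in the mix of cells cannot be told apart.

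NRF2, the product of NFE2L2, is a transcription factor that cells use against oxidants and electrophiles. KEAP1 holds it in the cytosol and hands it to a CUL3 ubiquitin ligase for degradation. Oxidants and electrophiles modify KEAP1, NRF2 escapes degradation, pairs with small MAF proteins and switches on genes for glutathione, thioredoxin, quinone and haem metabolism. Much of this control acts on the NRF2 protein, which RNA levels do not show. The atlastins are membrane GTPases that join ER (endoplasmic reticulum) tubules, and haem oxygenase 1 is anchored in the ER membrane.

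The libraries held 14197344 to 15693049 estimated counts. RNA of ATL2 and ATL3 was lower in DKO, by log2 fold changes of -2.21 and -2.83 (edgeR adjusted p = 0.00029 and 3.7e-05). Of 13094 genes tested, 45.5% were called at an adjusted p below 0.05, 23.3% higher and 22.2% lower in DKO, with a median log2 fold change of -0.0084. DKO replicate 3 stood apart from DKO replicates 1 and 2, by a median of 0.45 on the log2 scale over all genes. The counts of called members and of called list genes are therefore also given without it. Vimentin was high in all samples (at least 1260 FPKM, fragments per transcript length and sequencing depth), whereas the fibroblast marker THY1 was at 0 in all 6 and COL1A2 at 0 in WT. The summed level of 8 mesenchymal markers was 4021 to 4175 FPKM in WT against 2827 to 3151 in DKO, with 2 called higher and 3 lower. The members of that list moved in opposite directions: FN1 fell from a mean of 1838 to 207 FPKM, and LGALS1 rose from 695 to 1407. The 6 epithelial markers, with 2 higher and 3 lower, summed to 708 to 801 FPKM in WT against 529 to 690 in DKO, most of it KRT8 and KRT18. CDH1 and CLDN4 fell to 1.93% and 1.77% of WT, and EPCAM and KRT19 rose 2.53-fold and 4.95-fold. The 2 endothelial markers in the table summed to 0.13 to 0.2 FPKM and 0.24 to 0.42, with VWF called higher. The 3 blood cell markers in the table summed to 14.1 to 15.9 FPKM and 13.3 to 14.9, nearly all of it CD68, which was not called, while PTPRC reached at most 0.18 and CD3E at most 0.05. The part of the marker differences in the results that follow was not tested.

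HMOX1, KEAP1 and GCLC differed between the genotypes, and the other 6 genes did not pass the test. HMOX1 RNA in DKO was at 37.9% of WT. KEAP1 was 1.83-fold and GCLC 1.77-fold higher. Called members were thus 2 of 9 higher and 1 of 9 lower, a share of 33.3% against 45.5% of all genes tested. A gene is called here when edgeR's quasi-likelihood test over all genes gives an adjusted p below 0.05 after Benjamini-Hochberg adjustment, and fold changes are DKO over WT. Without DKO replicate 3, 3 members were higher and 3 lower, where 36.0% of 13237 genes were called higher and 38.6% lower, 74.6% in all. The FPKM values of the groups did not overlap for 4 of the 9 genes, KEAP1, HMOX1, GCLC and NFE2L2, against 63.2% of all genes tested.

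**Figure D1:**
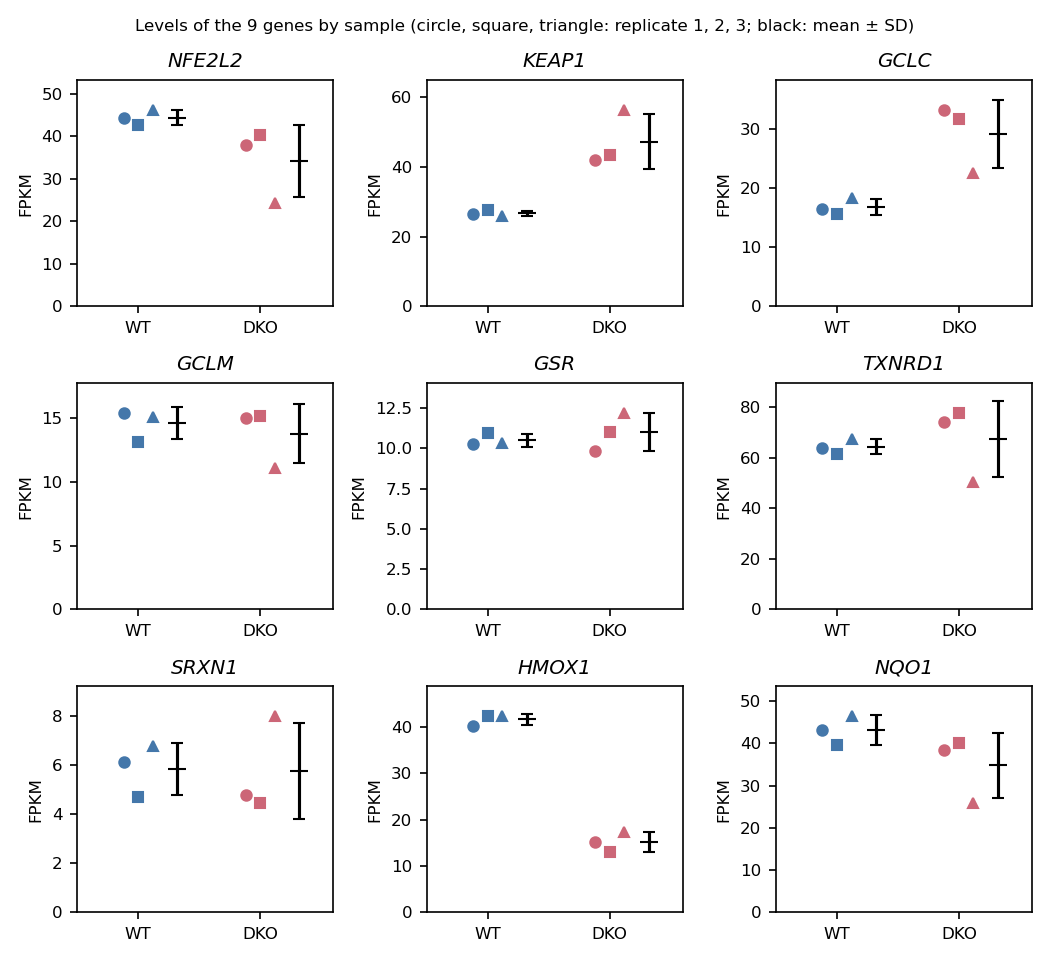
Level of each gene in FPKM (vertical axis, from 0) in the 3 WT (blue) and 3 DKO (red) samples. Circles, squares and triangles are replicates 1, 2 and 3, and the black mark is the mean with its SD. HMOX1 lies between 13.1 and 17.4 FPKM in DKO against at least 40.2 in WT, KEAP1 and GCLC lie above WT in each DKO sample, and DKO replicate 3 departs from the other DKO samples for most genes.

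Among the regulators, the inhibitor rose. KEAP1 stood at 26.5, 27.6 and 26.1 FPKM in WT replicates 1 to 3 and at 42.0, 43.5 and 56.5 in DKO replicates 1 to 3, the order used throughout. Every DKO sample lay above every WT sample, and DKO replicate 3 was the highest. The fitted log2 change of 0.88 had an SE of 0.16 (edgeR adjusted p = 0.0039), and the change was 0.68 without DKO replicate 3. NFE2L2 itself had 44.2, 42.7 and 46.3 FPKM in WT against 37.9, 40.3 and 24.4 in DKO. Its groups did not overlap either, but most of the distance came from DKO replicate 3, and the difference did not pass the test (log2 fold change -0.34, SE 0.17, edgeR adjusted p = 0.15). Without that sample the DKO level was closer to WT and the spread smaller, and NFE2L2 was called lower (log2 fold change -0.17, edgeR adjusted p = 0.003).

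The RNA of the factor relative to that of its inhibitor was lower in DKO. The ratio of NFE2L2 to KEAP1 FPKM was 1.67, 1.55 and 1.78 in WT against 0.903, 0.928 and 0.432 in DKO. NFE2L2 thus exceeded KEAP1 in each WT sample, and KEAP1 exceeded NFE2L2 in each DKO sample. The mean ratio was 1.66 ± 0.114 in WT against 0.754 ± 0.279 in DKO (SD, n = 3 each). With 3 samples against 3, an exact two-sided permutation test cannot go below p = 0.1, which it gave here, or 0.15 after Benjamini-Hochberg adjustment over 3 ratios. Without DKO replicate 3 the DKO mean was 0.55 of the WT mean, against 0.453 with it.

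Glutathione is made from glutamate, cysteine and glycine, and its first and rate-limiting step is carried out by glutamate-cysteine ligase, which joins a catalytic subunit (GCLC) and a modifier subunit (GCLM). The catalytic subunit was higher in DKO and the modifier was not called. GCLC stood at 16.5, 15.6 and 18.3 FPKM in WT and at 33.2, 31.7 and 22.5 in DKO. All DKO samples lay above all WT samples, with DKO replicate 3 nearest to them. The fitted log2 change of 0.82 had an SE of 0.15 (edgeR adjusted p = 0.0041). GCLM had 15.5, 13.1 and 15.1 FPKM in WT against 15.0, 15.2 and 11.1 in DKO. Its groups overlapped, and edgeR gave it a log2 fold change of -0.042 with an SE of 0.14 (adjusted p = 0.83).

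The ratio of GCLC to GCLM varied little within each genotype. It was 1.07, 1.19 and 1.21 in WT against 2.21, 2.09 and 2.03 in DKO. DKO replicate 3, in which both genes had the lowest level of the DKO samples, had nearly the same ratio as the other DKO samples. The means were 1.16 ± 0.0773 and 2.11 ± 0.0928 (SD, n = 3 each), a DKO ratio 1.82 times that of WT (exact two-sided permutation p = 0.1, and 0.15 after adjustment over the 3 ratios). Leaving out any 1 sample gave 1.76 to 1.87 times. FPKM is scaled by transcript length, so these ratios compare RNA levels and not amounts of subunit protein.

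**Figure D2:**
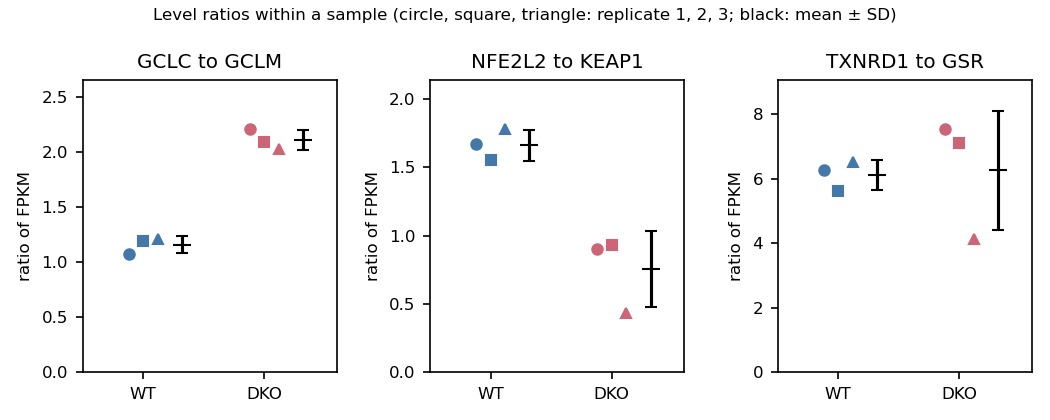
Ratio of the FPKM of 2 genes within a sample (vertical axis, from 0) for GCLC to GCLM, NFE2L2 to KEAP1 and TXNRD1 to GSR, in WT (blue) and DKO (red); circles, squares and triangles are replicates 1, 2 and 3, and black marks are means with SD. The GCLC to GCLM ratio is 1.07 to 1.21 in WT and 2.03 to 2.21 in DKO, NFE2L2 to KEAP1 is below 1 in DKO only, and TXNRD1 to GSR overlaps.

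GSR encodes glutathione reductase, which returns oxidised glutathione to its reduced form with NADPH. Its level was 10.3, 11.0 and 10.4 FPKM in WT against 9.84, 11.0 and 12.2 in DKO. The groups overlapped, and the fitted log2 change of 0.12 was smaller than its SE of 0.15 (edgeR adjusted p = 0.54).

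The members of the thioredoxin system were not called. TXNRD1, the cytosolic thioredoxin reductase, is a selenoprotein that uses NADPH to keep thioredoxin reduced. It had the highest mean level of the 9 genes in both genotypes. TXNRD1 stood at 64.1, 61.5 and 67.4 FPKM in WT against 74.2, 77.9 and 50.5 in DKO, and in DKO replicate 3 it lay below KEAP1. DKO replicates 1 and 2 lay above all WT samples and DKO replicate 3 below them, and the fitted log2 change of 0.10 had an SE of 0.15 (edgeR adjusted p = 0.59). Without DKO replicate 3 it was 0.25 and passed the test (edgeR adjusted p = 6e-06).

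SRXN1 encodes sulfiredoxin, which repairs overoxidised peroxiredoxins. It had the lowest level, with 6.13, 4.70 and 6.76 FPKM in WT against 4.79, 4.46 and 8.02 in DKO, from 46 to 100 counts per library. The groups overlapped, with the highest value of all 6 samples in DKO replicate 3. edgeR gave it a log2 fold change of 0.065 with an SE of 0.31 (adjusted p = 0.88) and -0.35 without that sample (edgeR adjusted p = 0.099). The ratio of TXNRD1 to GSR, the reductases of the thioredoxin and glutathione systems, was 6.12 ± 0.467 in WT against 6.25 ± 1.85 in DKO (SD, n = 3 each, exact two-sided permutation p = 1.0, as after adjustment). Without DKO replicate 1 the DKO mean was 0.917 and without DKO replicate 3 it was 1.2 times that of WT.

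HMOX1 showed the largest difference of the 9 genes. It encodes haem oxygenase 1, the inducible enzyme that opens the haem ring to biliverdin, iron and carbon monoxide. Its level was 40.2, 42.4 and 42.2 FPKM in WT against 15.1, 13.1 and 17.4 in DKO. The groups were far apart, with 17.4 FPKM as the highest DKO value and 40.2 FPKM as the lowest WT value. The fitted log2 change of -1.40 had an SE of 0.16 (edgeR adjusted p = 0.00045), and leaving out any 1 sample gave -1.56 to -1.29, with the call kept each time.

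NQO1, a quinone reductase widely used as a readout of NRF2, was not called. It had 43.2, 39.6 and 46.6 FPKM in WT against 38.4, 40.0 and 25.9 in DKO. Only DKO replicate 2 lay within the WT range, DKO replicate 1 lay just under it and DKO replicate 3 well below. The fitted log2 change of -0.28 had an SE of 0.16 (edgeR adjusted p = 0.20). It was -0.13 without DKO replicate 3, where NQO1 was called lower (edgeR adjusted p = 0.032). Its estimated counts were not whole in 3 samples, so its reads may have been divided with similar genes and its values are uncertain. In WT the range of NQO1 (43.1 ± 3.52) overlapped those of NFE2L2 (44.4 ± 1.83) and HMOX1 (41.6 ± 1.21 FPKM, SD, n = 3 each). NFE2L2 and HMOX1 did not overlap each other in WT. In DKO HMOX1 was at 15.2 ± 2.14 FPKM, and its range overlapped that of GCLM.

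**Figure D3:**
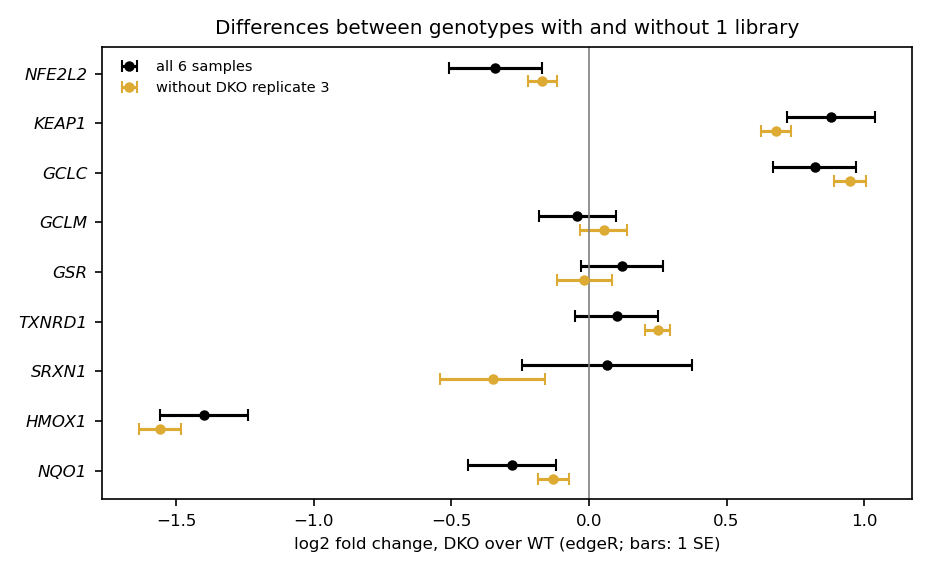
Log2 fold change of DKO over WT (horizontal axis) for each gene, from edgeR on all 6 samples (black) and without DKO replicate 3 (yellow), with bars of 1 SE. HMOX1 lies at -1.40 and -1.56, KEAP1 at 0.88 and 0.68, and GCLC at 0.82 and 0.95, whereas the other 6 genes lie between -0.35 and 0.25.

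The order of the RNA levels in WT was TXNRD1, NFE2L2, NQO1, HMOX1, KEAP1, GCLC, GCLM, GSR and SRXN1, from 64.3 ± 2.96 to 5.86 ± 1.06 FPKM (SD, n = 3 each). Of the 8 neighbouring pairs in this order, 2 overlapped: NFE2L2 with NQO1 and NQO1 with HMOX1. In DKO the order was TXNRD1, KEAP1, NQO1, NFE2L2, GCLC, HMOX1, GCLM, GSR and SRXN1, from 67.5 ± 14.9 to 5.76 ± 1.97 FPKM, and 5 of the 8 neighbouring pairs overlapped. KEAP1 moved from the fifth to the second place and HMOX1 from the fourth to the sixth. The spread among the DKO samples was wider than in WT for each of the 9 genes. On the log2 scale the 3 DKO samples spanned 0.32 (GCLM) to 1.01 (SRXN1), and the WT samples 0.082 (KEAP1) to 0.49 (SRXN1). DKO replicate 3 was lower than the mean of the other DKO samples for NFE2L2 (log2 difference -0.58), NQO1 (-0.49), TXNRD1 (-0.49), GCLC (-0.44) and GCLM (-0.32), and higher for SRXN1 (0.96), KEAP1 (0.50), HMOX1 (0.43) and GSR (0.37).

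Across the 6 samples, and among 105 other genes of the members and the pathway lists that follow, the gene most like NFE2L2 in log2 CPM (counts scaled to the library total) was NQO1 (Pearson r = 0.985), and the reverse held too. The pattern of HMOX1 was most like that of ABCC3, a conjugate exporter (r = 0.997), and that of KEAP1 most like that of the peptidase gene CNDP2 (r = 0.996). GCLC was most like SESN3 (r = 0.992), GCLM like the formylglutathione hydrolase gene ESD (r = 0.937) and TXNRD1 like the cystine transporter gene SLC7A11 (r = 0.934). SRXN1 was most like ABCB6 (r = 0.951) and GSR like PRDX5 (r = 0.961). These values describe 6 points in 2 groups that share the genotype difference and DKO replicate 3, and they carry no test.

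The other genes of the pathway were taken from 6 lists of 115 genes in all, of which 106 were in the table and 97 passed the filter on low counts. Of these 97, 27 were higher, 28 lower and 42 not called, so that 56.7% were called against 45.5% of all genes, and the median log2 fold change was -0.0031 against -0.0084. Without DKO replicate 3, 37 were higher and 41 lower, where 36.0% of all genes tested were called higher and 38.6% lower, 74.6% in all. These shares are the ones to set beside the counts without DKO replicate 3 in each list that follows. Without WT replicate 1, 2 or 3, 16, 18 and 15 were higher and 21, 22 and 19 lower. The number called over all genes moved as well, to between 4266 and 9880 when any 1 sample was left out, against 5959 with all 6. For the fits without a WT sample, no shares of all genes called higher and lower are given here. The list counts from those fits, here and in the rest of the text, are therefore not a result about the lists.

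**Figure D4:**
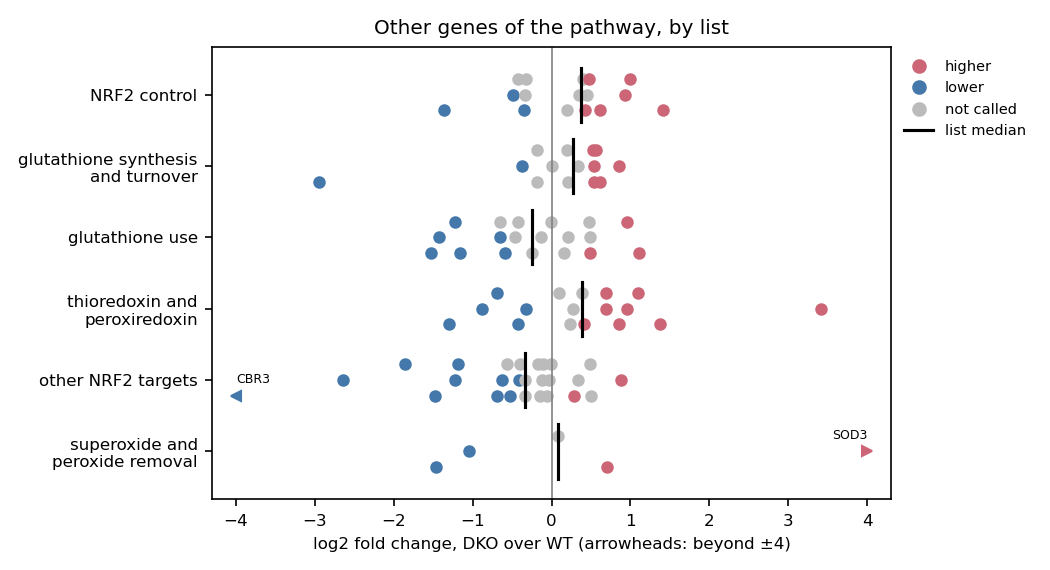
Log2 fold change of DKO over WT (horizontal axis) for the 97 tested genes of the 6 lists (rows), coloured by whether the gene was called higher (red), lower (blue) or not called (grey), with the list median as a black line. Arrowheads mark CBR3 and SOD3, which lie beyond the axis; the genes of glutathione use and the other NRF2 targets lie mostly below 0, with medians of -0.25 and -0.33.

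Of 16 genes for partners and regulators of NRF2, 6 were higher and 3 lower, so that 56.2% were called against 45.5% of all genes (23.3% higher and 22.2% lower), with a median log2 fold change of 0.37 (without DKO replicate 3: 8 and 4, median 0.18). Without WT replicate 1, 2 or 3, the numbers higher were 3, 4 and 3 and the numbers lower 2, 1 and 1. The small MAF genes, whose products pair with NRF2, did not move together. MAFF rose from 12.6 ± 0.357 to 32.5 ± 1.28 FPKM (SD, n = 3 each, log2 fold change 1.41, SE 0.10, edgeR adjusted p = 6.8e-05) and MAFK from 14.9 ± 0.627 to 28.2 ± 0.772 (0.99, SE 0.10). MAFG fell from 12.2 ± 0.821 to 9.35 ± 0.471 FPKM (-0.35, SE 0.11, edgeR adjusted p = 0.042), a call lost when any sample but DKO replicate 3 was left out (adjusted p 0.077 to 0.17). NFE2L3, a relative of NFE2L2, rose from 13.1 ± 0.373 to 24.3 ± 4.9 FPKM (0.93, SE 0.15). BACH2, a repressor at the same DNA elements, fell by 1.36 on the log2 scale (SE 0.26) at no more than 0.26 FPKM.

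BACH1, the repressor best known for HMOX1, was not called (5.58 ± 0.609 FPKM in WT against 4.35 ± 1.73 in DKO, log2 fold change -0.33, SE 0.28, edgeR adjusted p = 0.37). The scaffold gene of the KEAP1 ligase, CUL3, was not called either (-0.32, SE 0.23, edgeR adjusted p = 0.29), nor was SQSTM1, whose product sequesters KEAP1 (0.45, SE 0.16, edgeR adjusted p = 0.058). SQSTM1 passed without DKO replicate 2 (0.54, adjusted p = 0.042) or without DKO replicate 3 (0.25, adjusted p = 1.5e-05). RBX1, the ring subunit of that ligase and the most abundant of the list, rose from 125 ± 9.49 to 165 ± 11 FPKM (0.47, SE 0.11, edgeR adjusted p = 0.013), but not past the test without WT replicate 1 (0.45, adjusted p = 0.076) or WT replicate 3 (0.42, adjusted p = 0.078). MAFG, BACH1, CUL3 and SQSTM1 were chosen after their values were seen. In the paragraphs that follow, so were GSS, SLC7A11, SLC3A2, MGST1, GPX4, PRDX2, PRDX4, PRDX5, PRDX6, TXNRD2, SLC48A1, FTH1 and the biliverdin reductase genes.

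Of 14 tested genes of glutathione synthesis and turnover around the ligase, 6 were higher and 2 lower, so that 57.1% were called against 45.5% of all genes, with a median of 0.27 (without DKO replicate 3: 8 and 2, median 0.32). Without WT replicate 1, 2 or 3, the numbers higher were 2, 3 and 1 and the numbers lower 1, 2 and 1. GSS, which adds glycine in the last step, rose from 47.8 ± 1.75 to 67 ± 10.6 FPKM (0.54, SE 0.16, edgeR adjusted p = 0.027), a call lost without any 1 of the WT samples (adjusted p 0.079 to 0.10), and by 0.35 without DKO replicate 3. Of the cystine transporter, the subunit gene SLC3A2 rose from 87.8 ± 3.16 to 121 ± 17.1 FPKM (0.54, SE 0.14, edgeR adjusted p = 0.018, and 0.057 to 0.076 without 1 WT sample). Its partner SLC7A11 stood at 7.63 ± 0.702 FPKM in WT against 7.53 ± 2.95 in DKO (0.0076, SE 0.28, edgeR adjusted p = 0.99), and without DKO replicate 3 it was called higher (0.28, adjusted p = 0.00026).

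On the side of breakdown, CHAC1, which cleaves glutathione in the cytosol, rose from 14.7 ± 1.39 to 21.8 ± 1.89 FPKM (0.62, SE 0.15, edgeR adjusted p = 0.012, and 0.061 and 0.063 without WT replicate 1 and 3). GGT1, the cell-surface enzyme that starts the breakdown of exported glutathione, fell from 67 counts in the WT samples together to 8 in DKO (-2.95, SE 0.53). The peptidase gene CNDP2 rose (0.53, SE 0.12) and LAP3 fell (-0.38, SE 0.087, edgeR adjusted p = 0.01, and 0.054 and 0.059 without WT replicate 1 and 3). SLC25A39, which carries glutathione into mitochondria, was the most abundant of the list and rose from 324 ± 18.2 to 461 ± 79.1 FPKM (0.56, SE 0.16, edgeR adjusted p = 0.026, and 0.068 to 0.10 without 1 WT sample, with 0.36 on the log2 scale without DKO replicate 3).

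Of 19 tested genes for enzymes that use glutathione, 3 were higher, 6 lower and 10 not called. The share called, 47.4%, was near the 45.5% of all genes, with a median of -0.25 (without DKO replicate 3: 5 and 10, median -0.16). The microsomal glutathione transferases, which sit in the ER and outer mitochondrial membranes, split: MGST2 fell from 14.5 ± 0.777 to 4.86 ± 1.02 FPKM (-1.53, SE 0.15, edgeR adjusted p = 0.00028) and MGST3 from 52.8 ± 3.55 to 18.7 ± 2.04 (-1.43, SE 0.16), while MGST1 rose from 70.3 ± 3.87 to 148 ± 49.4 (1.11, SE 0.22). The mitochondrial and peroxisomal transferase gene GSTK1 fell (-1.22, SE 0.14) and GSTA4, whose product clears the lipid aldehyde hydroxynonenal, rose (0.96, SE 0.14). GSTP1, the most abundant transferase, was not called, with 570 ± 35 FPKM in WT against 494 ± 88.2 in DKO (-0.13, SE 0.18, edgeR adjusted p = 0.57), and was called lower without DKO replicate 3 (-0.37, adjusted p = 4.8e-10). GPX4, which reduces lipid peroxides, lay just outside the threshold (277 ± 21 and 194 ± 30.6 FPKM, -0.46, SE 0.16, edgeR adjusted p = 0.055). GPX4 was called lower in 9 of the alternatives described below and not called in 8. Without DKO replicate 3, one of those with the call, its change was -0.66 (edgeR adjusted p = 1.1e-16).

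Of 17 tested thioredoxin and peroxiredoxin genes, 8 were higher and 5 lower, so that 76.5% were called against 45.5% of all genes, with a median of 0.39 (without DKO replicate 3: 9 and 5, median 0.20). Without WT replicate 1, 2 or 3, the numbers lower were 2, 3 and 2. The peroxiredoxins divided. PRDX1, the abundant cytosolic peroxidase, fell from 1320 ± 52.6 to 695 ± 147 FPKM (-0.88, SE 0.12, edgeR adjusted p = 0.0012) and its cytosolic relative PRDX2 from 73.5 ± 2.46 to 28.4 ± 6.06 (-1.30, SE 0.20). PRDX4 (-0.32, SE 0.10, edgeR adjusted p = 0.029) and PRDX6 (-0.43, SE 0.10, edgeR adjusted p = 0.011) were also called lower. Without WT replicate 1 or 3, only PRDX1 and PRDX2 stayed lower. The mitochondrial PRDX3 rose from 164 ± 4.15 to 257 ± 38.1 (0.69, SE 0.10), and PRDX5 was not called (0.23, SE 0.18, edgeR adjusted p = 0.32).

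TXN, thioredoxin itself and the most abundant of the list, rose from 1466 ± 101 to 1869 ± 280 FPKM (0.41, SE 0.089, edgeR adjusted p = 0.0085, and 0.054 without WT replicate 2). TXNIP, the thioredoxin-binding inhibitor, rose from 8.11 ± 0.859 to 20.4 ± 2.6 FPKM (1.37, SE 0.13), and SESN3, a sestrin, from 0.287 ± 0.103 to 3.06 ± 1.24 (3.41, SE 0.40). The mitochondrial reductase gene TXNRD2 rose from 4.72 ± 0.437 to 8.57 ± 2.73 FPKM (0.96, SE 0.26, edgeR adjusted p = 0.022, and 0.056 to 0.085 without 1 WT sample, with 0.61 on the log2 scale without DKO replicate 3), where the cytosolic TXNRD1 was not called. The values of TXN are uncertain for the same reason as those of NQO1, as are those of SQSTM1.

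Of 26 tested other genes known as NRF2 targets, 2 were higher, 10 lower and 14 not called. The share called, 46.2%, was near the 45.5% of all genes (23.3% higher and 22.2% lower), with a median of -0.33 (without DKO replicate 3: 5 and 17, median -0.47). Without WT replicate 1, WT replicate 3 or DKO replicate 1, the number higher was 1. EPHX1, the microsomal epoxide hydrolase of the ER, fell from 14.1 ± 0.467 to 2.16 ± 0.287 FPKM (-2.64, SE 0.16, edgeR adjusted p = 2.9e-05). AKR1B1, aldose reductase, fell from 454 ± 15.9 to 157 ± 13.8 FPKM (-1.48, SE 0.12) and the exporter gene ABCC3 from 10.8 ± 0.225 to 2.9 ± 0.631 (-1.86, SE 0.18). The carbonyl reductase gene CBR3 had 112 counts in the WT samples together and 0 in every DKO sample, at least 12.2-fold lower against a floor of 3 counts per library. FTL, the ferritin light chain and the most abundant of the list, was not called (2193 ± 74.7 and 1663 ± 174 FPKM, -0.33, SE 0.14, edgeR adjusted p = 0.086). FTL was called lower in 5 of the 17 alternatives described below, with -0.50 without DKO replicate 3 (edgeR adjusted p = 4.2e-16). The 2 genes called higher were SLC48A1 (0.88, SE 0.15, edgeR adjusted p = 0.003) and FTH1, the ferritin heavy chain (0.29, SE 0.086, edgeR adjusted p = 0.03). Both stayed higher without DKO replicate 3 (0.72 for SLC48A1 and 0.22 for FTH1). Their calls in the other fits with 1 sample left out are not given here. The estimated counts of FTH1 were not whole in 6 samples and those of SLC48A1 in 2, so their values are uncertain.

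Downstream of haem oxygenase, the biliverdin reductases were not alike. BLVRA fell from 59.6 ± 1.83 to 39.6 ± 0.898 FPKM (-0.53, SE 0.10, edgeR adjusted p = 0.005). BLVRB stood at 127 ± 12 and 168 ± 41.6 FPKM and was not called (0.49, SE 0.23, edgeR adjusted p = 0.12); without DKO replicate 3 it was called higher (0.18, adjusted p = 0.008).

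Of the 5 genes that remove superoxide and peroxide without glutathione, 2 were higher and 2 lower, 80.0% called against 45.5% of all genes (without DKO replicate 3: 2 and 3). SOD3, the secreted dismutase, rose from 0.323 ± 0.0577 to 22.4 ± 1.47 FPKM (6.15, SE 0.20, edgeR adjusted p = 4.4e-06), from 20 counts in the WT samples together. Mitochondrial SOD2 fell from 47.3 ± 2.33 to 21.8 ± 3.32 FPKM (-1.05, SE 0.17), and peroxisomal catalase (CAT) from 19.9 ± 0.605 to 6.99 ± 0.52 (-1.47, SE 0.11). The copper chaperone gene CCS rose from 5.69 ± 0.578 to 8.94 ± 1.71 FPKM (0.70, SE 0.21, edgeR adjusted p = 0.032, and 0.05 to 0.12 without any 1 WT sample or DKO replicate 2, where 1 gene of this list stayed higher, SOD3). SOD1, the most abundant, was at 399 ± 13.4 and 399 ± 83.5 FPKM and was not called (0.087, SE 0.20, edgeR adjusted p = 0.76), but was called lower without DKO replicate 3 (-0.20, adjusted p = 0.00014). Its values are uncertain in the same way.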

How the data were processed

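RNA of 3 WT and 3 DKO samples was sequenced, with groups taken from the sample titles. Per the file headers the authors deposited, for each gene and sample, estimated counts, of which 5.8 to 6.54% per sample were not whole, and FPKM values. The submitters' processing notes name HISAT and Bowtie2. Not given in the sources used here are versions, counting program, strand setting and build, so no coordinates are reported. Another 9 columns, for 3 samples outside these groups, stayed unused. The gene IDs of all 9 genes matched RefSeq (assembly mChlSab1.0.hap1).

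Estimated counts were rounded and tested with edgeR 4.0.16 (R 4.3.3): TMM normalization, filter on low counts by group (minimum 10), quasi-likelihood test, Benjamini-Hochberg adjustment over 13094 genes. Each SE was computed as the absolute log2 fold change over the square root of F. DESeq2 1.42.0 and limma 3.58.1 were alternatives. The fits were also run on simulated data in which few genes differed and no library stood apart. That run does not show how they behave on data like these. Ratios were tested by exact permutation.

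The 9 genes and the 6 lists were chosen with earlier results of these data known. Named genes were the 9 members, ATL2 and ATL3, and from each list the 4 called genes with the smallest adjusted p and the most abundant gene; other names are marked as chosen after their values were seen. Other genes of the lists are only counted, and 1 of them is not reported here.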

Additional observations from a re-analysis of the deposited data

How the results depend on the processing

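HMOX1, KEAP1 and GCLC kept their direction and their call in each of the 17 alternatives run: each sample left out, 4 other normalizations, genes left unfiltered, a replicate block, DESeq2, limma-voom, limma on log2(FPKM + 1) and log2(FPKM + 0.1), and a threshold of 0.01. Their log2 fold changes with the replicate block were -1.42, 0.86 and 0.81, and with it 2 members were higher, 1 lower, and 18 and 22 pathway genes, of 4485 genes called. Deviations from the group means correlated at 0.02, -0.28 and -0.29 between same-numbered samples. DKO replicate 3 dominated the deviations in DKO, so these correlations cannot decide whether the numbers mark pairs. They were not taken as pairs. The block ended the calls of RBX1, GSS, SLC3A2, CHAC1, LAP3, SLC25A39, MAFG and TXNRD2 among the named genes.

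Leaving out 1 sample gave 4266 to 9880 genes called against 5959, 2 to 3 members higher and 1 to 3 lower, and 15 to 37 pathway genes higher and 19 to 41 lower. At a threshold of 0.01, 3902 of 13094 genes tested were called in either direction, and 14 of 97 pathway genes were called higher. For this threshold and for the replicate block, no share of all genes by direction is given here. Leave-one-out log2 fold changes ranged from 0.68 to 0.96 for KEAP1, 0.73 to 0.95 for GCLC, -0.46 to -0.17 for NFE2L2, -0.38 to -0.13 for NQO1, -0.12 to 0.053 for GCLM, -0.00071 to 0.25 for TXNRD1, -0.35 to 0.24 for SRXN1 and -0.018 to 0.21 for GSR. SRXN1 was also below 0 by limma (-0.048 and -0.06 with pseudocounts of 1 and 0.1). The TXNRD1 to GSR ratio of DKO over WT was 0.917 to 1.2 with 1 sample left out, and 0.99 when averaged on the log2 scale over same-numbered samples. SOD1 was at -0.20 without DKO replicate 3 and -0.02 by limma with either pseudocount. SLC7A11, near 0, changed sign: -0.069 without WT replicate 2, -0.15, -0.17 and 0.28 without DKO replicates 1, 2 and 3, -0.061 with the replicate block, -0.013 with no filter, -0.011, -0.005, -0.018 and -0.03 with DESeq2 size factors, upper quartile, library totals and totals without the 100 most abundant genes, -0.01 with DESeq2, -0.072 with limma-voom, and -0.083 and -0.11 with limma. The cause of these changes was not tested. At 3 samples a group, small differences such as those of the 6 uncalled members may go undetected.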

Other observations

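Lists of haem synthesis and of selenoproteins were added after the data were seen, since HMOX1 uses haem and TXNRD1 is a selenoprotein. Of 12 genes of haem synthesis and oxidation, 3 were higher and 1 lower, a share called of 33.3% against 45.5% of all genes tested (23.3% higher and 22.2% lower), and the median log2 fold change was -0.14 (without DKO replicate 3, the counts were 4 and 6). HMOX2, the constitutive haem oxygenase, rose where HMOX1 fell, from 27.8 ± 2.08 to 48.3 ± 8.67 FPKM (SD, n = 3 each, log2 fold change 0.85, SE 0.18, edgeR adjusted p = 0.0075, and 0.64 without DKO replicate 3). ALAD, the second enzyme of haem synthesis, rose from 13.9 ± 0.56 to 41.3 ± 10.3 FPKM (1.64, SE 0.22), and the haem-binding membrane protein gene PGRMC1 fell from 92 ± 4.71 to 29.9 ± 8.51 (-1.59, SE 0.19). ALAS1, the first and rate-limiting enzyme, was not called (25 ± 0.453 and 21.2 ± 3.27 FPKM, -0.18, SE 0.16, edgeR adjusted p = 0.38), and was called lower without DKO replicate 3 (-0.36, adjusted p = 4.2e-06).

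Of 17 tested selenoprotein genes, 5 were called higher by edgeR and the other 12 were not called, a share of 29.4% against 45.5% of all genes, with a median of 0.33. Without DKO replicate 3, 8 were higher and 5 lower (median 0.19), where 36.0% of all genes were called higher and 38.6% lower. Some selenoprotein genes were called lower in 9 of the 17 alternatives. Without any 1 of the WT samples 1 was higher. SELENOS, an ER membrane protein of protein degradation, rose from 24.2 ± 2.63 to 41.7 ± 8.36 FPKM (0.83, SE 0.15, edgeR adjusted p = 0.0045). Of 8 tested genes of selenocysteine synthesis and insertion, SECISBP2, whose product binds the insertion element of these mRNAs, rose from 7.51 ± 0.586 to 14 ± 1.35 FPKM (0.93, SE 0.12) and SCLY, selenocysteine lyase, fell from 13.9 ± 0.851 to 8.13 ± 0.21 (-0.73, SE 0.12). The other 6 were not called, a share called of 25.0% against 45.5% of all genes. Without DKO replicate 3, 3 of the 8 were higher and 3 lower.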
